A study of Rattus norvegicus with 6 samples.

Results

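Genes that mark the transmitter a neuron releases, 5 in all, were followed in the implanted rat spinal cord: the GABA genes Gad1, Gad2 and Slc32a1 and the glutamate genes Slc17a6 and Slc17a7. They were taken by their Ensembl gene IDs (ENSRNOG00000000007, ENSRNOG00000018200, ENSRNOG00000015393, ENSRNOG00000016147 and ENSRNOG00000020650 in the same order). All 5 IDs were in the deposited table of 22526 genes. The table holds IDs only, so the symbols rest on the list of members and could not be checked against the reference gene table, which carries none of these IDs. RNA was sequenced from the spinal cord of 6 adult Sprague-Dawley rats, described as female, 2 weeks after spinal cord injury. In 3 rats the lesion had received a scaffold of decellularized optic nerve, from which the nerve's own cells had been removed (DON). The scaffold of the other 3 also bore Apt19S, which is an aptamer, a short folded nucleic acid chosen to bind a target (A-DON). Injury and scaffold were thus common to both groups, and no uninjured or unimplanted rats were analysed here, so DON is the only reference. The level and kind of injury and the piece of cord taken (lesion, scaffold or neighbouring cord) are not given in the labels.

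A neuron that uses GABA makes it from glutamate with glutamate decarboxylase, which has a pair of forms encoded by Gad1 (GAD67) and Gad2 (GAD65). Slc32a1 encodes VGAT, the transporter that loads GABA, and also glycine, into synaptic vesicles, so it marks inhibitory neurons of both kinds in the cord. Glutamate is loaded by the vesicular glutamate transporters. Slc17a6 encodes VGLUT2, the form made by most excitatory interneurons of the cord. Slc17a7 encodes VGLUT1, which in the cord is found mainly on endings of axons whose cell bodies lie outside it, in sensory ganglia and the cortex.

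The promoters of the 5 genes are shown because 4 of the genes had similar profiles over the libraries, while that of Slc17a7 was less like theirs. They were read from RefSeq by symbol (rat build GRCr8, plus strand, 5 of 5 matched). Only bases before the annotated start of the gene are printed: chr3:75777202-75777259 for Gad1, chr17:89671468-89671717 for Gad2, chr3:167686995-167687244 for Slc32a1, chr1:110348197-110348446 for Slc17a6 and chr1:104785955-104786171 for Slc17a7. Capitals mark the GC box motif GGGCGG, the cAMP response element half-site TGACG, the CAAT box motif CCAAT or the TATA box motif TATAAA, searched on both strands, and neighbouring sites may share a base.
Gad1: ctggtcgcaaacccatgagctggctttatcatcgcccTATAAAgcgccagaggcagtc
Gad2: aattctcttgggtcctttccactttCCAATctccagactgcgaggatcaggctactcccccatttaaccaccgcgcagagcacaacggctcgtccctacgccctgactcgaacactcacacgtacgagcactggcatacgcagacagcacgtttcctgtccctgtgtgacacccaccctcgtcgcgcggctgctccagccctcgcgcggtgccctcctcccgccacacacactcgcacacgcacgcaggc
Slc32a1: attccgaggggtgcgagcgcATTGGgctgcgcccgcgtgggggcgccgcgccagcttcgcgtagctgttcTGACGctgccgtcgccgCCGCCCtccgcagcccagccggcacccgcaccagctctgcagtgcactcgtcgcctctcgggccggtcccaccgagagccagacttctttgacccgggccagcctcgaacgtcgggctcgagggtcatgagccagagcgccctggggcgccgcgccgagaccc
Slc17a6: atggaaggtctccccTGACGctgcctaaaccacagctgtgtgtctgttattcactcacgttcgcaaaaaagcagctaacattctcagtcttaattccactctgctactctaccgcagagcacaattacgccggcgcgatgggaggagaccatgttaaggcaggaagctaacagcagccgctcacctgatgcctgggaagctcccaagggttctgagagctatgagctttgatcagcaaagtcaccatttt
Slc17a7: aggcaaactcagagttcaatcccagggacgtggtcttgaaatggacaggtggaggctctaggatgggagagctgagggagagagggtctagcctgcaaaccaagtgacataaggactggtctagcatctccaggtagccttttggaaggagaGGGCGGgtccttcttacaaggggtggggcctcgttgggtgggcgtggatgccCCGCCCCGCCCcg
No single motif of the 4 was found in all 5 windows of 300 bases (250 before and 50 after the start used for the window). In Gad1 and Slc17a7 the annotated start of the gene comes earlier, after 58 and 217 bases of the window. The rest of each of these windows lies past that annotated start. GC boxes were found in the windows of Gad1 (1), Slc32a1 (1) and Slc17a7 (3), and 33.1% of all 33469 RefSeq promoter windows held one. The half-site TGACG was found at 2 places each in Slc32a1 and Slc17a6, against 21.2% of all windows with at least 1. In each gene 1 of them lies past the printed stretch, as does the GC box of Gad1. CCAAT was found in Gad2 and Slc32a1 (37.5% of all windows) and TATAAA in Gad1 alone of the 5 (14.2%). The Slc32a1 window was 73.7% G or C, a share reached by 4.27% of all windows, while the Slc17a6 window was 49.0% G or C, below the median of 51.7%. These matches describe letters in the sequence, and binding was not measured. Whether the sequences have any bearing on the profiles was not tested.

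The libraries held 24961512 to 31189687 reads, as recovered from the deposited values, and totals were lower in each A-DON library than in each DON library. Across the whole table A-DON replicate 2 stood between the groups: the chi-square per degree of freedom of its reads against the DON libraries was 134 to 230, against 382 to 605 for A-DON replicates 1 and 3. Against its own group it was 146 (A-DON replicate 1) and 126 (A-DON replicate 3), while A-DON replicates 1 and 3 had 18.8 between them. Values without A-DON replicate 2 are given with the fits that leave out 1 library. The 5 genes together had 2425, 6090 and 2010 reads in DON replicates 1, 2 and 3, or 77.8, 200.1 and 69.0 RPM (reads scaled to equal library totals). In A-DON replicates 1, 2 and 3 they had 21067, 9829 and 16178 reads, or 729, 394 and 572 RPM. Markers of other neurons, glia, immune cells and muscle could not be read because the table's IDs could not be tied to symbols, so the cell content of each piece of cord was not measured.

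All 5 genes were higher in A-DON than in DON, by 3.56-fold to 9.69-fold, and both the inhibitory and the excitatory genes rose. Each of the 5 passed the test (limma on the log2 values of all 19515 tested genes, Benjamini-Hochberg adjusted p under 0.05), while 18.9% of the tested genes were called higher in A-DON and 35.5% in either direction. In all 5 genes the lowest A-DON library was above the highest DON library, which held for 28.0% of the tested genes. The median log2 fold change was 2.59 over the 5 genes and -0.02 over all tested genes. In bulk tissue, fewer cells of a type and less RNA per cell cannot be told apart, so these values do not separate a difference in the number of such neurons from a difference in their transcripts.

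Gad1, which encodes the decarboxylase form found throughout the GABA neuron, had 762, 1560 and 612 normalized counts (reads divided by the size factor of the library) in DON replicates 1, 2 and 3. It had 4245, 2249 and 3455 in A-DON replicates 1, 2 and 3. The groups did not overlap, but the lowest A-DON library was only 1.44 times the highest DON library. The means were 978 ± 509 in DON and 3316 ± 1005 in A-DON (SD, n = 3 each). This log2 fold change, 1.83 (standard error 0.41, limma adjusted p 0.023), was the smallest of the 5 genes.

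Gad2, which encodes the decarboxylase form concentrated at nerve endings, had 475, 1437 and 297 normalized counts in DON and 4976, 2568 and 3514 in A-DON replicates 1, 2 and 3. DON replicate 2 stood well above the other DON libraries, and A-DON replicate 2 was the lowest of its group. The mean rose from 736 ± 613 to 3686 ± 1213 (SD, n = 3 each). This was a log2 fold change of 2.59 (standard error 0.60, limma adjusted p 0.025). Gad2 spread over a 4.84-fold range within DON, against 1.94-fold within A-DON.

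Slc32a1, the vesicular GABA and glycine transporter, had 438, 1031 and 514 normalized counts in DON and 3848, 1845 and 2974 in A-DON replicates 1, 2 and 3. Its groups did not overlap, with the lowest A-DON library at 1.79 times the highest DON library. The mean rose from 661 ± 323 to 2889 ± 1004 (SD, n = 3 each). On the log2 scale the rise was 2.17 (standard error 0.41, limma adjusted p 0.016).

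Slc17a6, the vesicular glutamate transporter of cord interneurons, had 634, 1734 and 602 normalized counts in DON and 7138, 3719 and 5983 in A-DON replicates 1, 2 and 3. Of the 5 genes it had the widest gap between the groups, with its lowest A-DON library at 2.14 times the highest DON library. The mean rose from 990.1 ± 645 to 5613 ± 1739 (SD, n = 3 each). The log2 fold change was 2.63, with a 95% interval of 1.48 to 3.79 (standard error 0.47, limma adjusted p 0.015). A fold change at least as high was found in 4.08% of the tested genes.

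Slc17a7, whose protein VGLUT1 is found in the cord mainly on endings of sensory and cortical axons, was scarce. DON replicates 1, 2 and 3 had 4, 47 and 5 reads, and A-DON replicates 1, 2 and 3 had 78, 207 and 71. Which cells these reads came from was not measured. In normalized counts the reads were 3.81, 44.8 and 5.05 in DON and 75.1, 223 and 70.2 in A-DON. Unlike the other members, it was highest in replicate 2 in both groups. The mean rose from 17.9 ± 23.3 to 123 ± 87.0 (SD, n = 3 each). The log2 fold change of 3.28 was the highest of the 5 but also the least precise, with a 95% interval of 0.89 to 5.66 (standard error 0.98, limma adjusted p 0.045). Adding 1 before the log2 understates the change of a gene this low: with a pseudocount of 0.1 its log2 fold change was 3.45, and with a pseudocount of 5 it was 2.76.

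**Figure D1:**
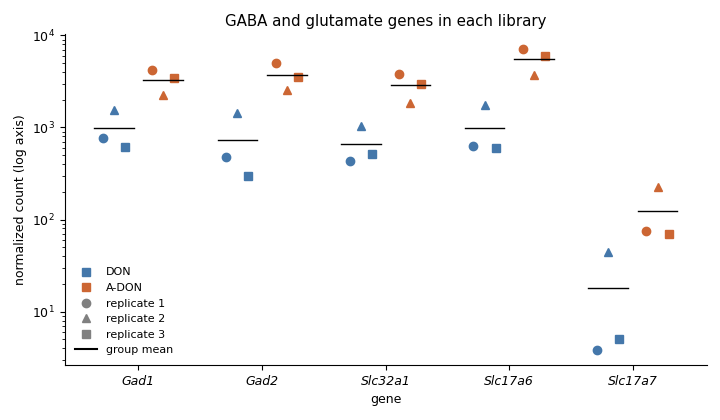
Normalized counts (log axis) of each gene in each of the 6 libraries, DON in blue and A-DON in orange, with the marker shape giving the replicate and a line the group mean. In every gene the 3 A-DON libraries lie above the 3 DON libraries, and DON replicate 2 is the highest DON library.

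**Figure D2:**
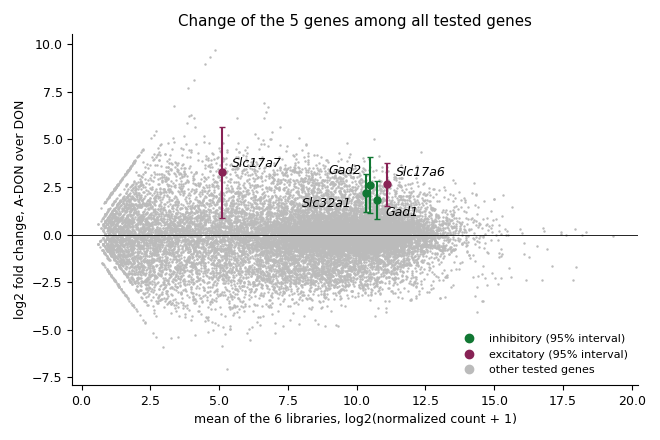
Log2 fold change of A-DON over DON against the mean log2 level of all 19515 tested genes (grey), with the 3 inhibitory genes in green and the 2 excitatory genes in purple, each with its 95% interval from limma. The 5 genes lie between 1.83 and 3.28, and Slc17a7 sits far to the left of the other 4 because of its low level.

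Within a group, the same rats were high or low in most of these genes. DON replicate 2 was at least 2-fold above both other DON libraries in 5 of the 5 genes, a pattern seen in 5.95% of all tested genes. It exceeded the mean of the other DON libraries 2.27-fold in Gad1, 3.72-fold in Gad2, 2.17-fold in Slc32a1, 2.81-fold in Slc17a6 and 10.1-fold in Slc17a7. DON replicates 1 and 3 lay closer to each other, with ratios of replicate 1 to replicate 3 between 0.755 (Slc17a7) and 1.60 (Gad2). In A-DON the odd library was also replicate 2, in the other direction for the 4 abundant genes: it lay above all DON libraries and below both other A-DON libraries in 4 of the 5 genes, against 23.0% of all tested genes. Its level was 0.584 (Gad1), 0.605 (Gad2), 0.541 (Slc32a1) and 0.567 (Slc17a6) of the mean of A-DON replicates 1 and 3. Slc17a7 was instead 3.07 times that mean in this library, and 13.9% of the tested genes were 2-fold or more above both other A-DON libraries there. The distance between the highest DON rat and the lowest A-DON rat was therefore much smaller than that between the means, from 1.44-fold in Gad1 to 2.14-fold in Slc17a6.

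The inhibitory and the excitatory genes were next set against each other within each library, which removes what both genes of a ratio share. Levels of different genes were not corrected for transcript length, so only the shift of a ratio between the groups can be read. The log2 ratio of Gad1 to Slc17a6 was 0.26, -0.15 and 0.02 in DON replicates 1, 2 and 3, and -0.75, -0.73 and -0.79 in A-DON. All A-DON values lay below all DON values, with a difference of -0.80 and a standard error of 0.12. The exact two-sided permutation p was 0.1, the smallest that 3 rats against 3 allow, and 0.3 after Benjamini-Hochberg adjustment over the 6 inhibitory to excitatory ratios. This ratio was nearly the same in the 3 A-DON rats (SD 0.03, n = 3) although the genes themselves differed by up to 1.92-fold among them, and it varied more in DON (SD 0.21, n = 3).

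The ratio of Slc32a1 to Slc17a6 was also lower in A-DON, with a mean of -0.50 ± 0.26 in DON and -0.97 ± 0.07 in A-DON (log2, SD, n = 3 each). The groups did not overlap, and the exact two-sided permutation p was again 0.1, adjusted 0.3. No such shift was seen between Gad2 and Slc17a6, whose mean log2 ratio was -0.57 ± 0.40 in DON and -0.61 ± 0.14 in A-DON (SD, n = 3 each), a difference of -0.04 with a standard error of 0.24 and an exact permutation p of 0.9 (adjusted 0.9). Its sign turned when a library was left out, with differences between -0.26 and 0.11, so no direction can be given for this ratio. The -0.26 was found without DON replicate 3, the DON rat with the lowest ratio. In that fit all A-DON values lay below the DON values (exact permutation p 0.1, the smallest possible there).

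Ratios to Slc17a7 were too variable to place the groups apart. The log2 ratio of Gad1 to Slc17a7 was 6.56 ± 1.3 in DON and 4.92 ± 1.4 in A-DON (SD, n = 3 each), and those of Gad2 and Slc32a1 averaged 5.95 and 6.01 in DON but 5.07 and 4.71 in A-DON. All 3 differences were negative, from -1.64 to -0.87, but the groups overlapped, with exact two-sided permutation p of 0.3 to 0.5 (adjusted 0.45 to 0.6). A-DON replicate 2 gave the lowest value of all 6 libraries in each of these ratios and held the most Slc17a7. Single libraries set the size of these differences. For Gad1 to Slc17a7 the difference was -2.36 without DON replicate 2, where the groups no longer overlapped (exact permutation p 0.1, the smallest possible with 5 rats), and -0.84 without A-DON replicate 2. For Slc32a1 to Slc17a7 it was -2.05 (again without overlap, exact permutation p 0.2) and -0.47 in the same fits, and for Gad2 to Slc17a7 -1.35 and -0.10. Leaving out DON replicate 1 also brought Gad2 to Slc17a7 to -0.37 and Slc32a1 to Slc17a7 to -0.89, and leaving out A-DON replicate 1 brought Gad2 to Slc17a7 to -1.36.

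As a description with no test, the mean log2 level of the 3 inhibitory genes minus that of the 2 excitatory genes was 3.46, 2.25 and 3.04 in DON replicates 1, 2 and 3 and 2.56, 1.27 and 2.35 in A-DON. The groups overlapped, and the difference of their means was -0.85. With Slc17a6 alone as the excitatory gene, a choice made after seeing the data, the values were -0.23, -0.39 and -0.41 in DON and -0.72, -0.76 and -0.86 in A-DON. These did not overlap, and the difference was -0.44. None of the ratios thus reached an adjusted p under 0.05, and with 3 rats in each group none could.

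Both decarboxylase genes rose, and the ratio between them was then compared. The log2 ratio of Gad2 to Gad1 was -0.68, -0.12 and -1.04 in DON and 0.23, 0.19 and 0.02 in A-DON replicates 1, 2 and 3. The difference of 0.76 had a standard error of 0.28 and an exact two-sided permutation p of 0.1, adjusted 0.4 over the 4 ratios compared within the inhibitory and within the excitatory genes. These 4 ratios were chosen after the values had been seen, and no adjusted p was under 0.05. Without 1 library the difference for Gad2 to Gad1 ran from 0.55 to 1.01. In the other 3, which were Slc32a1 to Gad1, Gad2 to Slc32a1 and Slc17a7 to Slc17a6, the groups overlapped, with differences of 0.34, 0.43 and 0.84 and exact permutation p of 0.2, 0.4 and 0.5 (adjusted 0.4 to 0.5). Without 1 library these differences ran from 0.21 (without DON replicate 1) to 0.48 (DON replicate 3), from 0.06 (DON replicate 3) to 0.70 (DON replicate 2) and from 0.02 (A-DON replicate 2) to 1.46 (DON replicate 2). The groups no longer overlapped for Slc32a1 to Gad1 without DON replicate 3 (exact permutation p 0.1) or A-DON replicate 2 (p 0.2). Nor did they without DON replicate 2 for Gad2 to Slc32a1 (exact permutation p 0.1) and Slc17a7 to Slc17a6 (p 0.3).

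**Figure D3:**
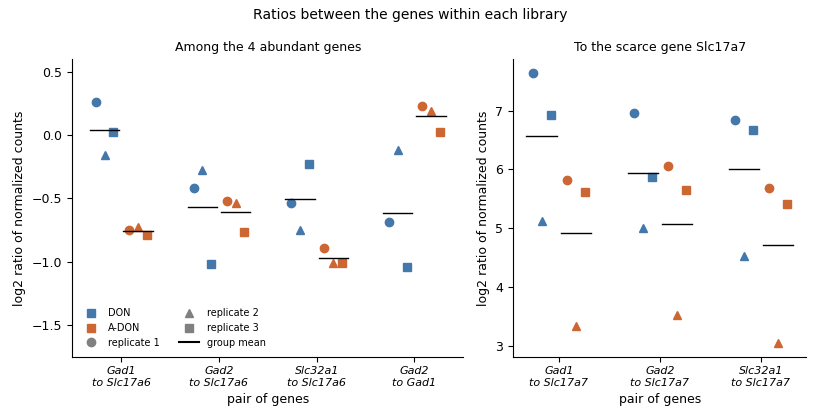
Log2 ratio of normalized counts of a pair of genes within each library, DON in blue and A-DON in orange, with the marker shape giving the replicate and a line the group mean. Gad1 to Slc17a6 and Slc32a1 to Slc17a6 lie lower in all A-DON libraries, Gad2 to Gad1 lies higher in all of them, and the ratios to Slc17a7 overlap.

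The 4 abundant genes had similar profiles over the libraries, but not each other's closest ones. Over the 6 libraries, Pearson's r of the log2 values was 0.994 between Gad1 and Slc17a6, 0.995 between Slc32a1 and Slc17a6 and 0.994 between Gad1 and Gad2, and 0.971 between Gad2 and Slc32a1. Of 14702 other genes whose mean reached 50 normalized counts, 25 had a higher r with Gad1 than Slc17a6 had, and 27 had a higher r with it than Gad2 had. The likeness was lower for other pairs: 1095 genes were more like Slc32a1 than Gad2 was, 382 were more like Slc32a1 than Gad1 was, and 336 were more like Slc17a6 than Gad2 was. For Slc17a7 the r with the other members was 0.842 to 0.886, and 3340 of the 14702 genes had a higher r with Slc17a6 than Slc17a7 had. Seen from Slc17a7 fewer genes stood between: 200 were more like it than Gad2 was, and 759 were more like it than Slc32a1 was. These coefficients contain the difference between the groups and share the 6 libraries and their scaling, so they describe likeness only. The gene most like Gad1 was ENSRNOG00000017311 (r = 0.998), which had 411 ± 119 normalized counts in DON and 884 ± 156 in A-DON (SD, n = 3 each). The gene most like Slc17a6 was ENSRNOG00000014253 (r = 0.9996), with 108 ± 76.6 in DON and 747 ± 229 in A-DON (SD, n = 3 each). The files used here pair no name with these IDs.

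The direction held without any single library in all 5 genes, whereas the calls depended on which rats were in the fit. Without DON replicate 2, the DON rat with the highest levels, all 5 genes passed the threshold, while 14.5% of the tested genes were called higher. The log2 fold changes then rose to 2.23 (Gad1), 3.24 (Gad2), 2.54 (Slc32a1), 3.13 (Slc17a6) and 4.31 (Slc17a7), which for Gad2 and Slc17a7 is a fold more than 1.5 times that with all rats. Without A-DON replicate 2, 4 of the 5 passed (22.7% of the tested genes were called higher), and Slc17a7 fell short with a log2 fold change of 2.74 and a limma adjusted p of 0.084.

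Without DON replicate 1, Slc32a1 and Slc17a6 kept their calls (13.3% of the tested genes were called higher), while Gad1, Gad2 and Slc17a7 had limma adjusted p of 0.062, 0.067 and 0.11. The log2 fold change of Slc17a7 in that fit was 2.68. Without DON replicate 3 none of the 5 passed, with limma adjusted p of 0.055 (Slc17a6) to 0.13 (Slc17a7) and 6.83% of the tested genes called higher. None passed without A-DON replicate 1 or 3 either, where limma called only 0.164% and 0.0564% of the tested genes higher and adjusted p for the 5 genes ran from 0.067 to 0.11. In all these fits the unadjusted limma p was at most 0.020 for Gad1, Gad2, Slc32a1 and Slc17a6 and at most 0.052 for Slc17a7. Each of these fits also had 1 rat fewer to estimate the spread from. So had the fit without A-DON replicate 2, which called 22.7% of the tested genes higher against 18.9% with all rats. Why the calls differed between the fits was not tested.

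**Figure D4:**
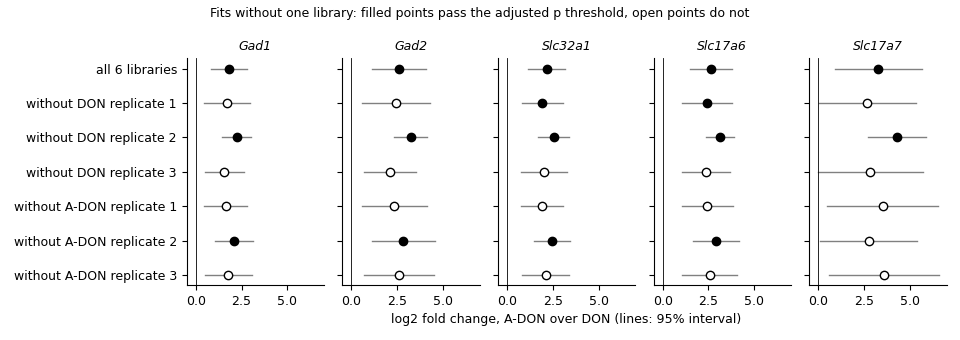
Log2 fold change of A-DON over DON with its 95% interval (limma) for each gene with all 6 libraries and without each library in turn. Filled points pass the adjusted p threshold of 0.05 and open points do not, and all points lie above 0.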

How the data were processed

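Per the labels' protocols, stranded mRNA libraries were made from the cord of 6 rats and read on an Illumina NovaSeq. The build rn6 and the tools StringTie 1.3.1c, STAR 2.5.3a and FastQC 0.11.2 appear in the submitters' processing notes without their roles. Which program counted reads, and with which strand setting, is not given in the labels. The authors deposited log2 values of 22526 genes. Undoing the log2 and subtracting 1 gave whole multiples of one step in 100% of the values (tolerance 0.05 reads), and the steps matched median-of-ratios size factors. Each deposited value is thus log2(read count / size factor + 1). Such counts carry counting error, and the labels mention no molecular identifiers.

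The 19515 genes that reached 1 normalized count in 3 or more libraries were fitted with limma 3.58.1 (R 4.3.3, statmod 1.5.0; group only, trend and robust moderation), with Benjamini-Hochberg adjustment over all of them and a threshold of 0.05. The count table was not tested as such, except with voom on the recovered reads. The script for the limma fit was tested on simulated counts, in which no library was set apart from its group as A-DON replicate 2 was here. Ratios within a library used normalized counts without a pseudocount and exact two-sided permutation tests over the rats (scipy 1.17.1, numpy 2.4.6, pandas 2.3.3, Python 3.11.15). The titles use the same rat numbers in both groups, and the rats were taken as separate animals, 3 per group. No pair of the 15 pairs of libraries agreed within sampling noise (chi-square per degree of freedom of 18.8 or more). The members, the lists and the tests were chosen with earlier results of these data known. The rule for named genes took the 5 members and, for Gad1 and Slc17a6, the most similar other gene. None of the 22526 IDs was in the reference gene table of 47357 genes, so 15 further lists (transmitter genes and cell type markers) could not be matched and gave no result. Alternatives were other scalings, pseudocounts, filters and limma settings, voom, sample weights, a block on replicate number, and fits without each library in turn. A pseudocount of 1 for the ratios and Slc17a6 alone as the excitatory gene were added after seeing the data.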

Additional observations from a re-analysis of the deposited data

How the results depend on the processing

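All 5 genes stayed higher in A-DON under all 16 alternatives. Gad1 and Gad2 kept their call in 11, Slc32a1 and Slc17a6 in 12 and Slc17a7 in 8. Slc17a7 missed the threshold without the filter on low values (log2 fold change 3.28, limma adjusted p 0.050201) and without trend and robust moderation (3.28, adjusted p 0.056). With the replicate block, that is, the replicate number of the titles as a block, the log2 fold changes were 1.83 (Gad1), 2.59 (Gad2), 2.17 (Slc32a1), 2.63 (Slc17a6) and 3.28 (Slc17a7), with limma adjusted p of 0.081, 0.076, 0.073, 0.069 and 0.066. No gene of the table passed in that fit (0 of 19515, 7601 at an unadjusted p under 0.05). The fit has fewer residual degrees of freedom, and why no gene passed was not tested. Over all tested genes, rats of equal number did not vary together around their group means (r = -0.17, -0.24 and -0.08). The numbers were therefore not taken to pair them. Slc17a7 alone of the 5 genes had a smaller standard error with the block, 0.49 against 0.98 (unadjusted limma p 0.0022 against 0.015). Its level was highest in replicate 2 in both groups. Leaving out 1 library gave log2 fold changes of 1.56 to 2.23 (Gad1), 2.10 to 3.24 (Gad2), 1.92 to 2.54 (Slc32a1), 2.37 to 3.13 (Slc17a6) and 2.68 to 4.31 (Slc17a7), and 12 to 9286 genes past the threshold against 6930 with all libraries. Sample weights gave 12414 genes, and the cause was not tested. The weights in that fit ran from 0.24 (A-DON replicate 2) to 6.99 (A-DON replicate 3), so its A-DON values lean on replicate 3. The ratio of Gad2 to Slc17a6 ran from -0.26 to 0.11 without 1 library and changed sign. The other 5 inhibitory to excitatory ratios and the difference between the inhibitory and excitatory means kept their sign under every alternative run. The 3 ratios to Slc17a7 varied most without 1 library, from -2.36 to -0.84 (Gad1), -1.36 to -0.10 (Gad2) and -2.05 to -0.47 (Slc32a1). The 4 ratios within the inhibitory and within the excitatory genes were run only without each library in turn, added after seeing the data, and kept their sign. Total-count scaling moved the median log2 fold change of all genes from -0.02 to 0.07, and the share of calls that were higher from 53.4% to 64.4%. The few reads of Slc17a7 in DON limit its fold change, while the other 4 genes had at least 294 reads in every library.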
